A study of Rattus norvegicus with 24 samples.

Results

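Collagens, laminins and integrins are the structural proteins of the extracellular matrix and the receptors by which cells hold on to it. Their members were found by gene symbol alone. These were the collagen chain genes, the laminin alpha, beta and gamma chain genes and the integrin alpha and beta subunit genes, without Itgam and without the integrin-binding proteins. This gave 47 of the 13337 genes with a named probe, namely 25 collagens, 5 laminins and 17 integrins, each read by 1 probe. The 17 include Itgbl1, which encodes a secreted protein related to the integrin beta subunits and not a receptor subunit.

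Collagens are built from chains wound around each other into a stiff helix. Fibrillar collagens form the fibres of meninges and vessel walls, and type IV collagen and the laminins form the networks of the basement membrane around brain vessels and beneath the pia. Integrins are pairs of an alpha and a beta subunit that bind these proteins and signal into the cell. The basement membrane of cerebral vessels and its integrins are known to be degraded and rebuilt after a stroke.

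RNA came from the cortex of male Wistar rats and was hybridised to 24 Illumina rat beadchip arrays, 4 in each of 6 groups. Rats of all groups were anesthetised with ketamine and xylazine and had a craniectomy. Sham rats were operated on without occlusion, vehicle rats had a permanent occlusion of the middle cerebral artery and 80% DMSO into the cerebral ventricle, and treatment rats had the occlusion and 30 mM ZM447439, an Aurora kinase inhibitor, in 80% DMSO. Each condition was sampled at 8 h and at 24 h, and the labels give no age and no injection for the sham rats. The protocol puts the occlusion on the left, whereas the tissue is labelled right cortex, and the sources used here do not settle which side was sampled. The labels do not say whether each array is a separate animal.

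The 12 deposited columns of a time point held 1 probe profile multiplied by 1 factor per array. No array departed from that profile in any of the 47 genes by more than 2.48e-07 log2 at 8 h or 2.35e-07 log2 at 24 h. The level of a gene relative to its array was therefore the same in sham, vehicle and treatment columns of a time point, and no gene was compared between these groups. Array medians, the unit of each level below, ran from 65.3 to 90.1 at 8 h and from 76.8 to 115 at 24 h. A level is the probe's intensity divided by the array median, and a difference is the log2 of the 24 h level over the 8 h level. Since each time point offers 1 profile, a difference carries no replicate error and was not tested, and levels of different genes are not ranked because probes differ in brightness. The profiles of a time point are not tied to particular groups, so time, injury, inhibitor and surgery cannot be told apart in a difference. The 6 measured cortical neuron markers, Snap25 and Slc17a7 among them, stood between 2.10 and 149 times the array median in both profiles.

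With profiles divided by their median, 1 of the 47 matrix and integrin genes differed by more than 1.5-fold. With the 1st percentile of each profile subtracted first, which enlarges the differences of dim probes, 3 were past 1.5-fold higher and 4 lower. Of all genes, 4.51% were at least 1.5-fold higher and 3.23% lower in that setting. The collagen median there went from -0.03 to -0.15. Col6a1, the alpha-1 chain of the beaded filament collagen type VI, went from 3.69 times the array median at 8 h down to 2.31 times at 24 h. In the profiles divided by their median no member was at least 1.5-fold higher. Among all 13337 genes 0.682% were at least 1.5-fold lower and 0.907% at least 1.5-fold higher, and nothing particular to the 47 genes is read from counts of 1 and 0. Of the 47 genes, 23 had a difference above 0 and 24 below 0, against 45.1% and 54.9% of all genes. Under scaling to the 75th percentile the split was 30 and 17, and the median of all genes went from -0.01 to 0.04. Their median difference was -0.01 log2, as was that of all genes, and 28 of the 47 lay within 0.1 log2 of no difference, against 56.2% of all genes.

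**Figure D1:**
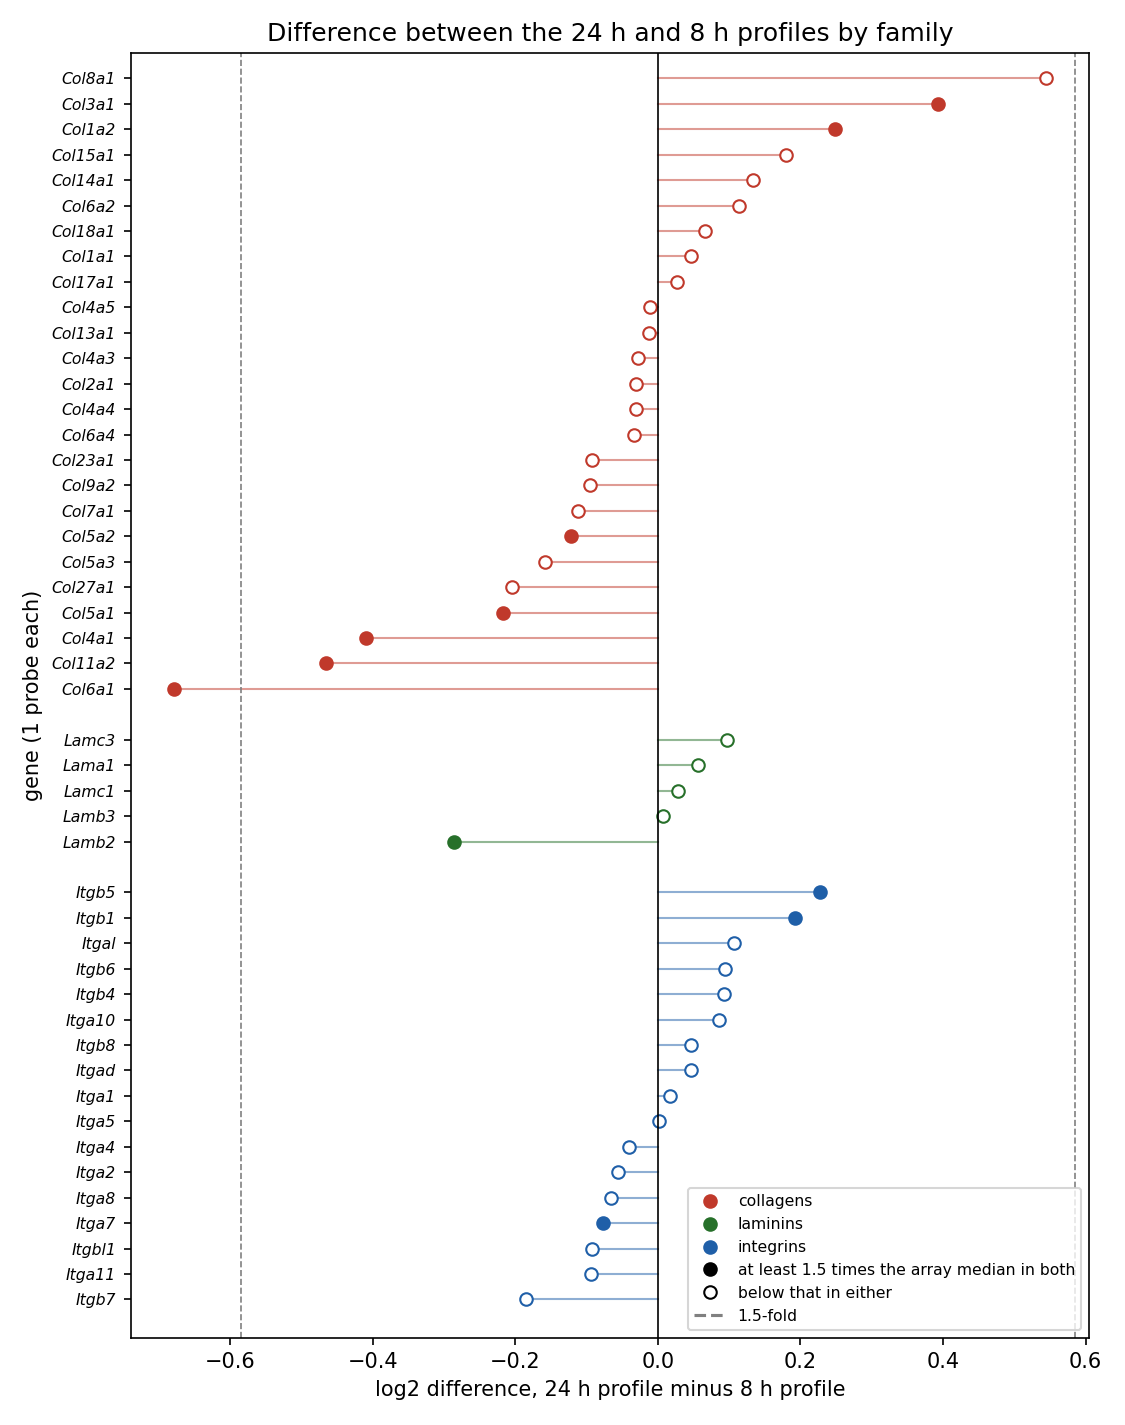
Log2 difference between the 24 h and 8 h profiles (x axis) for each of the 47 genes (y axis), sorted within collagens, laminins and integrins. Filled points mark the 11 genes at least 1.5 times the array median in both profiles, and dashed lines mark 1.5-fold, which only Col6a1 passes, at -0.68.

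The level of a probe sets how much its difference can say. The lowest named probes read 0.631 (8 h) and 0.621 (24 h) of the array median, so a probe near the median lies close to the floor of the array. No detection p-value was used here. Only 11 of the 47 genes (23.4%) stood at least 1.5 times above the array median in both profiles, against 44.2% of all genes. Below the median in both stood 19 (40.4%), against 37.5% of all genes. Differences are given below for the 11, which were Col1a2, Col3a1, Col4a1, Col5a1, Col5a2, Col6a1, Col11a2, Lamb2, Itga7, Itgb1 and Itgb5. The other 36 are described by their levels. Of the 11 genes, 7 were lower and 4 higher at 24 h, while 65.1% of the 5896 genes above the same level were lower and 34.9% higher. The median difference of the 11 was -0.12, and that of the 5896 was -0.08. The split among the 11 is thus near that of all genes above this level. At 1.5-fold, 1 of the 11 was lower and 0 were higher, against 1.39% and 1.66% of the 5896. At 1.25-fold, a size used only as a description, 3 of the 11 were lower and 1 higher, against 10.1% and 5.43%. RNA of whole tissue does not tell fewer cells of a type from less RNA per cell.

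**Figure D2:**
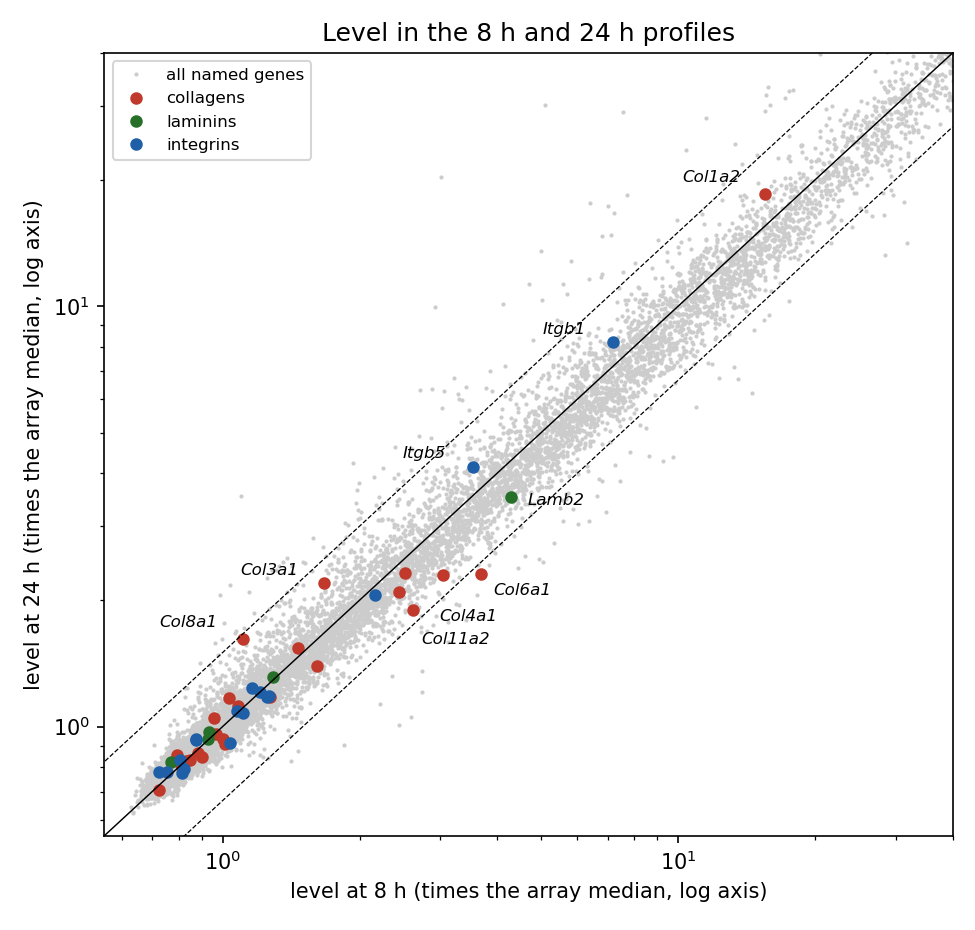
Level at 8 h (x axis) against level at 24 h (y axis), both in multiples of the array median on log axes, for all named genes (grey) and for collagens, laminins and integrins (coloured). The solid line marks equal levels and the dashed lines 1.5-fold. Most members lie in the lower left corner near the array median, and Col6a1 lies below the lower dashed line.

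Fibrillar collagens went in both directions. Col1a2, the alpha-2 chain of type I collagen, the main fibre of meninges and adventitia, had intensities of 1014 to 1399 (median 1237) over the 12 arrays at 8 h. At 24 h its intensities ran from 1418 to 2121. These ranges did not overlap, and neither did those of Col3a1 (109 to 150 and 168 to 252). The array factor contributes to the gap, since array medians ran higher at 24 h (76.8 to 115) than at 8 h (65.3 to 90.1). This parts the ranges of a higher gene more readily than those of a lower one. The share of all genes without overlap is not given here, and nothing is read from it. In multiples of the array median Col1a2 stood at 15.5 and 18.5, a difference of 0.25. Col3a1, the chain of type III collagen that accompanies type I in vessel walls, went from 1.67 to 2.19 times the array median between the 8 h and 24 h profiles. Its difference of 0.39 was the highest of the 11 brighter members, and 97.7% of all genes had a lower one. Of the 5896 genes at least 1.5 times the median in both profiles (the brighter genes), 96.1% had a lower one. Col1a1, the alpha-1 chain of type I collagen, was read by a probe near the array median in both profiles, at 1.08 and 1.12 times.

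The chains of type V collagen, which sits inside type I fibres and limits their width, were lower at 24 h where the probe was bright enough. Col5a1 stood at 2.43 and 2.09 times the median (difference -0.22), and Col5a2 at 2.52 and 2.31 times (-0.12). Col5a3 lay near the array median, at 1.01 and 0.907 times. Col3a1 and Col5a2 are neighbours in the RefSeq annotation of the rat genome, with no other protein-coding gene between them, yet they differed in opposite directions. Col11a2, a chain of type XI collagen best known from cartilage, stood at 2.61 and 1.89 times the median, a difference of -0.47. Of all genes 1.45%, and of the brighter genes 2.95%, had a lower difference than Col11a2. Col27a1 stood at 1.61 and 1.40 times and Col2a1, the cartilage fibre collagen, at 0.815 and 0.798 times. In all, 3 of the 9 fibrillar genes were higher and 6 lower, with a median of -0.12.

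In the basement membrane family, Col4a1 was lower in the 24 h profile. Col4a1 encodes a chain of the type IV collagen found in nearly all basement membranes, including those of brain capillaries. Its intensity ran from 199 to 275 (median 243) over the arrays at 8 h and from 176 to 264 (median 202) at 24 h. These ranges overlapped, but as multiples of the array median the levels were 3.05 and 2.29 on every array of each time. The difference was -0.41, and 2.46% of all genes and 4.97% of the brighter genes had a lower one. The other measured type IV chains, Col4a3, Col4a4 and Col4a5, belong to the basement membranes of kidney, lung and eye above all. They stood between 0.826 and 0.881 times the array median in both profiles.

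Type VI collagen forms beaded filaments next to basement membranes and is made by fibroblasts and mural cells, among others. Col6a1 had an intensity of 241 to 333 (median 294) over the 12 arrays at 8 h and 177 to 265 (median 203) at 24 h. The ranges overlapped between 241 and 265. The sham arrays read 309, 288, 311 and 275 at 8 h and 177, 209, 189 and 179 at 24 h. The vehicle arrays read 333, 320, 292 and 284 at 8 h and 260, 265, 202 and 191 at 24 h. The treatment arrays read 296, 332, 251 and 241 at 8 h and 204, 233, 204 and 200 at 24 h. Within a time point these arrays differ by the array factor alone. The 24 h level of Col6a1 was 1.60-fold below the 8 h level, a difference of -0.68. Of the 13337 genes, 0.465% had a lower difference than Col6a1, and 0.899% of the brighter genes did. Its chain partner Col6a2 is the neighbouring gene in the annotation, but the Col6a2 probe stood below the array median at 0.793 and 0.858 times. Col6a4, at 0.723 and 0.707 times, was at the floor of the arrays in both profiles.

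**Figure D3:**
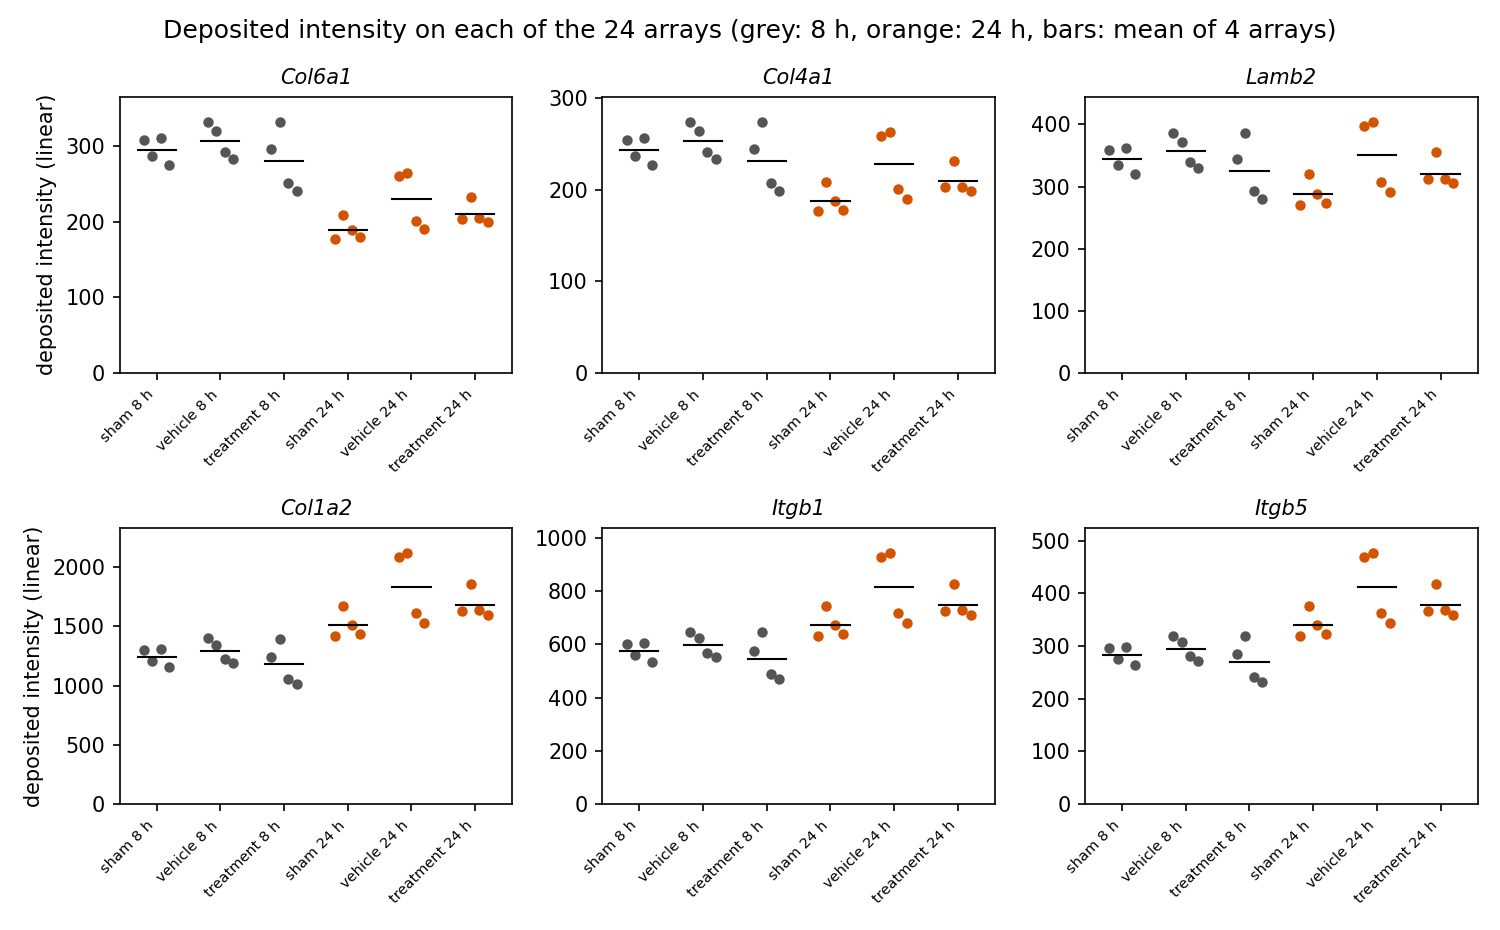
Deposited intensity on a linear axis from 0 (y axis) for 6 genes on each of the 24 arrays, grouped by condition and time (x axis), with 8 h arrays in grey, 24 h arrays in orange and bars for the mean of 4 arrays. Within a time point every gene has the same pattern over arrays, which is the array factor. Col6a1 and Col4a1 are lower and Col1a2 is higher at 24 h.

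The remaining collagens were dim. Col8a1, a short-chain collagen of vascular smooth muscle and endothelium, went from 1.11 to 1.61 times the array median between the profiles. No member had a higher log2 difference, and 98.9% of all genes had a lower one, but its 8 h level was that of a typical probe. Col15a1 and Col18a1 encode the basement membrane collagens whose ends release the fragments restin and endostatin. Col15a1 stood at 1.03 and 1.17 times the median and Col18a1 at 1.46 and 1.53 times. Col14a1, a collagen that coats fibril surfaces, stood at 0.958 and 1.05 times. Col7a1, the anchoring fibril collagen of skin, stood at 1.27 and 1.18 times, and Col9a2, a cartilage collagen, at 1.00 and 0.936 times. The transmembrane collagens Col13a1, Col17a1 and Col23a1 lay between 0.806 and 0.968 times the median in both profiles. Over the 25 collagens 9 were higher and 16 lower, with a median of -0.03. At 1.25-fold, 2 collagens were higher and 3 lower, against 3.4% and 4.97% of all genes. Col3a1 and Col8a1 were the higher ones, and Col4a1, Col6a1 and Col11a2 the lower ones.

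Upstream sequence is shown for the member past 1.5-fold, for the start region of Col4a1 and for Itgb1, an integrin subunit that was higher at 24 h. The sequences are from RefSeq on the build GRCr8, on the plus strand, 5′ to 3′. Capitals mark matches on either strand to the CCAAT box CCAAT, the GC box GGGCGG, the TATA box TATAAA or the AP-1 motif TGANTCA, and no matches of different motifs overlap here. Col6a1 is the 250 bases before the annotated start (chr20:11905440-11905689), Itgb1 likewise (chr19:73602027-73602276), and Col4a1 is the 76 bases that lie between its start and the start of Col4a2 on the other strand (chr16:84885521-84885596).
Col6a1: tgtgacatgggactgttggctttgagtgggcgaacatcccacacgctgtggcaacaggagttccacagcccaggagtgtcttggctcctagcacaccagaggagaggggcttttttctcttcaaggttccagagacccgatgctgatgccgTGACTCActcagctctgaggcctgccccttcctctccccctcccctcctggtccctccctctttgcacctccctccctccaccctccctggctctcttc
Itgb1: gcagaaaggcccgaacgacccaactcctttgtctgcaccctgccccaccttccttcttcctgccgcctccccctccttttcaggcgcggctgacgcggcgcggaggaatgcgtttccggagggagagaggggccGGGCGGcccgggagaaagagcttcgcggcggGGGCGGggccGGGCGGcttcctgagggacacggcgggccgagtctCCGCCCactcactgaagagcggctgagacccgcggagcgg
Col4a1: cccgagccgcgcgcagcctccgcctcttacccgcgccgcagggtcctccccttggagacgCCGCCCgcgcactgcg
The Col6a1 window held 1 TGANTCA, with its first base 99 bases before the start, and none of the other motifs. TGANTCA occurred in 6.34% of all 33469 promoter windows of 250 bases, and in 1 of the 37 member genes with a window. The Itgb1 window held 4 GGGCGG and no other motif. GGGCGG occurred in 30.5% of all windows and in 19 of the 37 members. CCAAT occurred in 34% of all windows and in 7 of 37 members, and TATAAA in 12.9% and 4 of 37. Member promoters had a median GC content of 59.6%, against 51.2% for all promoters. The motif counts were not adjusted for base composition, and nothing particular to the members is read from them. The Col4a1 and Col4a2 genes start back to back, so the 76 bases are the upstream sequence of both. They held 1 GGGCGG, which is found in 18.1% of all windows of that length. A match is a description of the letters and not a site. The members without a window were Col1a1, Col2a1, Col3a1, Col6a2, Col14a1, Itga7, Itgad, Itgal, Itgb4 and Lamb2.

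Laminins are cross-shaped trimers of an alpha, a beta and a gamma chain. Lamb2, the beta-2 chain of vascular, synaptic and pial basement membranes, was the laminin with a bright probe and was lower at 24 h. Its intensity ran from 280 to 387 (median 342) at 8 h and from 270 to 405 (median 310) at 24 h, so the ranges overlapped. As multiples of the array median Lamb2 stood at 4.29 and 3.52, a difference of -0.29. Of all genes 6.59% had a lower difference, and of the brighter genes 13.4%. Lamc1, the gamma-1 chain shared by most laminins of the brain, stood at 1.29 and 1.31 times the median. Lama1, an alpha chain of early and pial basement membranes, stood at 0.932 and 0.969 times. Lamb3, a chain of the skin laminin, stood at 0.928 and 0.932 times, and Lamc3 at 0.772 and 0.825 times. The 4 dim laminins were all within 0.1 log2 of no difference, as were 73.3% of all genes outside the brighter genes. The median of the 5 laminins was 0.03.

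Integrin beta subunits decide which family of receptors an alpha subunit joins. Itgb1 pairs with most alpha subunits and makes the receptors for collagen, laminin and fibronectin. Its intensity ran from 470 to 648 (median 573) over the arrays at 8 h and from 631 to 945 (median 723) at 24 h, and the ranges overlapped slightly. Itgb1 stood at 7.19 and 8.22 times the array median, a difference of 0.19. Itgb5, a partner of integrin alpha v in a vitronectin receptor, had intensities of 232 to 319 (median 282) at 8 h and 319 to 477 (median 365) at 24 h, ranges that touched at their ends. It stood at 3.54 and 4.15 times the median, a difference of 0.23, with 93.8% of all genes and 90.4% of the brighter genes lower. No member of the integrins was past 1.25-fold in either direction.

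The other beta subunits were near or below the array median. Itgb6 and Itgb8, which with alpha v activate latent transforming growth factor beta, stood at 0.874 and 0.933 times and at 0.805 and 0.831 times. Itgb4, the laminin receptor subunit of epithelia and of brain endothelium, stood at 1.16 and 1.24 times. Itgb7, a lymphocyte homing subunit, stood at 1.04 and 0.912 times. The secreted Itgbl1 stood at 1.25 and 1.18 times.

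Among the alpha subunits, Itga7 had the bright probe. Itga7 encodes a laminin-binding subunit of muscle and mural cells, and stood at 2.16 and 2.05 times the median, a difference of -0.08. The collagen-binding subunits Itga1, Itga2, Itga10 and Itga11 stood between 0.792 and 1.26 times in both profiles. Itga1 and Itga2, neighbours in the annotation, stood at 1.08 and 1.09 times and at 0.823 and 0.792 times. Itga5, the fibronectin receptor subunit that is known to appear on brain vessels after ischemia, stood at 1.21 times in both. Itga8, which recognises the same short peptide of fibronectin as Itga5, stood at 0.812 and 0.776 times. Of the leukocyte subunits, Itga4, the receptor of lymphocytes and monocytes for Vcam1, stood at 1.11 and 1.08 times. Itgal, the alpha subunit of LFA-1, stood at 0.725 and 0.780 times, and Itgad at 0.756 and 0.780 times. All 10 alpha subunits except Itgal lay within 0.1 log2 of no difference. All but Itga7 were outside the brighter genes. Of all genes outside the brighter genes, 73.3% lay within 0.1 log2, and of those below the median in both profiles 84.4% did. Nothing particular to the alpha subunits is read from this count. The 17 integrins had a median of 0.02, with 10 higher and 7 lower.

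**Figure D4:**
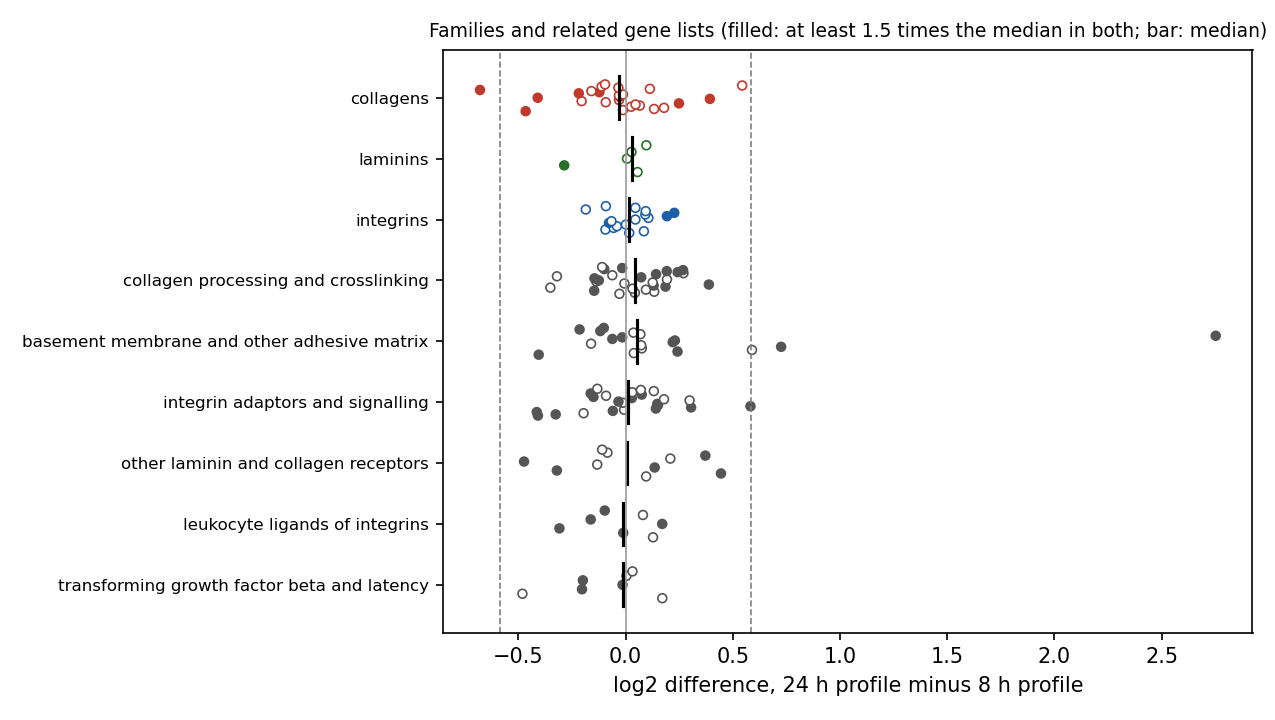
Log2 difference between the 24 h and 8 h profiles (x axis) of every measured gene of the 3 families and of 6 related gene lists (y axis). Filled points mark genes at least 1.5 times the array median in both profiles, black bars the median and dashed lines 1.5-fold. The family medians lie within 0.03 log2 of 0, and the far right point is the integrin ligand gene Spp1 at 2.75.

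Genes that process collagen, anchor the basement membrane or connect integrins to the cytoskeleton were read beside the members. The shares of all genes to set their counts against are 45.1% above 0 and 0.907% at least 1.5-fold higher. Enzymes and chaperones of collagen processing had 15 of 27 measured genes higher, none past 1.5-fold, and a median of 0.04. The crosslinking enzyme gene Loxl1 stood at 1.79 and 2.35 times the median (difference 0.39), the lysyl hydroxylase genes Plod1 and Plod3 differed by 0.24 and 0.27, and the collagen chaperone gene Serpinh1 by -0.10. Other adhesive matrix genes had 11 of 18 higher, 3 past 1.5-fold, and a median of 0.05. The 3 were Spp1, the fibulin gene Fbln1 (5.53 and 9.14 times) and Efemp1 (1.26 and 1.90 times). Agrin, a heparan sulfate proteoglycan of vascular basement membranes (Agrn), stood at 12.1 and 9.11 times, a difference of -0.41. Fibronectin (Fn1), the ligand of the Itga5 receptor, stood at 6.95 and 8.09 times (0.22).

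Integrin adaptor and signalling genes had 12 of 24 higher and a median of 0.01, with none past 1.5-fold. The share of all genes above 0, 45.1%, applies to this list and the receptor, ligand and growth factor lists as well. Flna, an actin crosslinker bound to integrin tails, stood at 5.17 and 7.74 times (0.58). Bcar1, an adaptor phosphorylated on adhesion, stood at 7.41 and 5.56 times (-0.41), and the alpha-actinin genes Actn1 and Actn4 differed by -0.41 and -0.33. Other laminin and collagen receptors had 5 of 10 higher (median 0.01), from Cd44 at 1.91 and 2.60 times (0.45) to the myelin-associated glycoprotein gene Mag at 3.82 and 2.75 times (-0.47). Dag1, which encodes the laminin receptor dystroglycan, stood at 24.6 and 19.7 times (-0.32). Ligands of leukocyte integrins had 3 of 7 higher (median -0.01). The LFA-1 ligand genes Icam1 and Icam2 stood at 2.75 and 2.22 times (-0.31) and at 2.18 and 2.46 times (0.17), and Vcam1 stood at 7.46 and 6.97 times (-0.10). Genes of transforming growth factor beta and its latency proteins had 3 of 7 higher (median -0.01).

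Some markers of other cell types differed between the profiles and others did not. Their counts stand beside 45.1% of all genes above 0, and 34.9% of genes at least 1.5 times the median in both profiles. Mural cell markers were higher in 3 of 5 measured genes and their summed level went from 9.71 to 13.3 times the array median, of which Tagln gave 2.87 and 6.34, whereas Cspg4, Kcnj8 and Abcc9 lay within 0.1 log2 of no difference. Endothelial markers were higher in 5 of 5, with sums of 39.7 and 42.5, but Cdh5, Cldn5 and Flt1 lay within 0.1 log2 of no difference, and Cdh5 stood below the array median. Vwf stood at 5.31 and 7.25 times. Markers of meningeal and perivascular fibroblasts were higher in 4 of 8, with sums of 325 and 284, of which Ptgds gave 253 and 206. Differences in this list were 0.24 for Dcn, 0.23 for Lum, 0.24 for Ogn, 1.03 for Igfbp2, -0.46 for Igf2, -0.30 for Ptgds and -0.15 for Pdgfra, and Slc6a13 stood at 1.37 and 1.33 times. Leukocyte and microglia markers were higher in 6 of 12 (sums 71.2 and 84.9). Gp1bb gave the largest part of these sums, 39.5 and 36.2, and Aif1 gave 15.7 and 33.3. Tyrobp stood at 2.02 and 3.24 times and Itgam at 1.19 and 1.68 times. S100a8 stood at 5.05 and 2.46 times, whereas S100a9 lay below the array median at 0.768 and 0.764 times. Ptprc, Cx3cr1 and Mpo lay near the median. Astrocyte markers were higher in 3 of 3 (sums 133 and 252), oligodendrocyte markers in 0 of 3 (169 and 125) and neuron markers in 0 of 6 (423 and 379). All measured markers of these cell types were at least 1.5 times the median in both profiles, so 34.9% is their share. Gfap alone gave 124 and 241 of the astrocyte sums, while Aqp4 differed by 0.37 and Slc1a2 by 0.19. Choroid plexus markers were higher in 3 of 4, with sums of 7.68 and 32.9, of which Ttr gave 5.10 and 30.1. No marker is listed at 0, since all probes carry a floor. The part of these cell types in the differences of the matrix genes was not tested.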

How the data were processed

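Total RNA of 24 cortex samples was labelled with biotin and hybridised to Illumina rat beadchips, per the labels' protocols. The authors deposited intensities on a linear scale for 22523 probes, 1 column per sample. Their background correction and normalization are not given in the sources used here. A further 24 columns of non-normalized signal match no sample by name and were not used. Groups came from the sample titles.

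Each column was divided by its median, and the median over the 12 columns of a time point gave 1 profile. Gene symbols came from the platform annotation (13793 named probes, 13337 genes, the probe with the highest mean level per gene). All 47 members had their gene identifier in the RefSeq table, and 0 symbols changed. The 24 h minus 8 h log2 difference was computed for all genes, and sizes of 1.5-fold and 1.25-fold were counted without a test. With 1 profile per time point no error can be given. The members, families and gene lists were chosen with earlier results of these data known. The rule for named genes was that every member is named, with both levels given where the probe reached 1.5 times the array median in either profile, where the difference passed 1.5-fold or was the largest or smallest of its subgroup; several other levels were added after their values were seen. A difference of a single gene, related genes included, was meant only for genes at 1.5 times the median in both profiles. Alternatives were quantile normalization, division by the 75th percentile, the 1st percentile subtracted (floor 0.1 times the median), leaving out dim probes, averaging probes and leaving out replicates. The procedure was run on simulated columns, made without noise from the 8 h profile, the array medians and known folds. Recovery of the folds there checks the arithmetic only. Python 3.11.15, numpy 2.4.6 and pandas 2.3.3 were used.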

Additional observations from a re-analysis of the deposited data

Results flagged for a closer look

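Among the 24 h treatment arrays, replicate 2 had an array median of 101, far above the 86.7, 88.5 and 88.6 of the other arrays of its group. Chance sets such an array apart in about 1 of 20 groups, and 6 groups were examined. The levels of the 47 genes in multiples of the array median are unaffected by it, since they were the same on all 12 arrays of the time point.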

How the results depend on the processing

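No paired analysis was possible because no difference was tested and the columns of a time point hold 1 profile. Leaving out each replicate number changed none of the values, by construction. Averaging the probes of a gene changed no member value, since each member has 1 probe. Under scaling to the 75th percentile the collagen median was 0.024 instead of -0.03, and 1 member (Col8a1) passed 1.5-fold on the higher side, with Col6a1 the 1 lower member; 30 members were then above 0 and 17 below, and the median of all genes went from -0.01 to 0.04. With the 1st percentile subtracted, the collagen median was -0.15, and 3 members were at least 1.5-fold higher (Col3a1, Col6a2 and Col8a1) and 4 lower (Col5a3, Col6a1, Col11a2 and Itgb7), beside 4.51% and 3.23% of all genes. This setting enlarges differences of dim probes by construction. The 8 h value of Col6a2 was at the floor set for this setting, so the size of its difference depends on that floor. Col6a1 then differed by -0.88, Col11a2 by -0.67, Col3a1 by 0.64 and Col4a1 by -0.54. Without dim probes, which leaves 2 laminins, the laminin median was -0.13 instead of 0.03. At 1.25-fold, a size chosen after the data were seen, 2 members were higher and 3 lower. The 11 brighter members kept the sign of their difference under quantile normalization, 75th percentile scaling and subtraction, and Col6a1 stayed past 1.5-fold under each of these 3. Each time point holds 1 profile, so no difference has an error, and 36 of the 47 probes did not reach 1.5 times the median in both profiles.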
